A study of Mus musculus with 32 samples.

Results

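The mRNAs that encode the subunits of the mitochondrial respiratory chain and of ATP synthase were examined in the livers of Gclc KO mice and compared with those of Gclc WT mice. Members were chosen by gene symbol: the Ndufa, Ndufb, Ndufc, Ndufs and Ndufv genes, Sdha to Sdhd, and the genes whose symbols begin with Uqcr, Cox4 to Cox8 or Atp5, leaving out assembly factors and pseudogenes. Of the 20821 gene symbols in the table, 83 matched, and 77 of these averaged 1 TPM or more over the 8 mice. TPM is the share of a library's transcripts that come from a gene, corrected for gene length and scaled to a fixed total. The 77 members comprised 34 of complex I, 4 of complex II, 8 of complex III, 14 of complex IV, 15 of complex V and 2 that share only the name. Gclc encodes the catalytic subunit of glutamate-cysteine ligase, which carries out the rate-limiting step of glutathione synthesis. Gclc KO mice carried Gclc f/f alleles and Rosa26-CreERT2, a tamoxifen-activated Cre recombinase that is present throughout the body, so the deletion was not restricted to hepatocytes. Gclc WT mice carried Gclc f/f alleles without Cre. Adult mice of both genotypes were given tamoxifen, 150 mg/kg by intraperitoneal injection on 5 days, and livers were collected 14 days later. There were 4 mice of each genotype and 4 libraries per mouse, which were averaged, so that n = 4 mice in each group throughout. Mice with Cre and intact Gclc were not part of the comparison, so the effect of the deletion and that of active Cre cannot be told apart.

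The respiratory chain sits in the inner mitochondrial membrane. Complex I takes electrons from NADH, complex II takes them from succinate, ubiquinone carries them to complex III, cytochrome c carries them on to complex IV, and complex IV passes them to oxygen. Complexes I, III and IV pump protons out of the matrix, and complex V, the ATP synthase, uses the return of these protons to make ATP. Each complex other than complex II also holds subunits encoded by mitochondrial DNA, whose mRNAs were not analysed here, so every level below is that of a nuclear mRNA. Hepatocytes are rich in mitochondria, and they depend on this chain for gluconeogenesis, urea synthesis and fatty acid oxidation.

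The deleted gene separated the genotypes. Gclc mRNA was measured at 26.9, 16.1, 18.6 and 26.8 TPM in the Gclc KO mice, against 82.3, 114, 77.8 and 138 TPM in the Gclc WT mice, a log2 fold change of −2.17 (adjusted p = 0.000612). All 4 Gclc KO mice lay below all 4 Gclc WT mice. The TPM values of a library summed to between 999315 and 999534, which keeps no record of sequencing depth, so the depth and the counting error are unknown. Members were well expressed in these livers, with a median over the members of 196 TPM and with 72 of 77 above a mean of 50 TPM. The lowest member was Ndufa4l2 at a mean of 1.25 TPM, followed by Cox7a1 at 2.12 TPM. The 6 matching symbols below 1 TPM were Cox6b2 (0.379 TPM), Cox8b (0.311 TPM), Cox4i2 (0.140 TPM), Cox6a2, Cox7b2 and Ndufs5. The first 5 of these are tissue-restricted isoforms of complex IV subunits. Ndufs5, a complex I subunit that every complex I contains, was listed at 0 in all 8 mice, as were Cox6a2 and Cox7b2. The sources used here do not say how reads shared with near-identical gene copies were counted, and a value of 0 for Ndufs5 may be a failed estimate, so it is not interpreted as absence.

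In each of the 5 complexes some subunit mRNAs were lower in Gclc KO livers than in Gclc WT livers. Of the 77 members, 42 were lower at an adjusted p under 0.05 (limma on log2(TPM + 1), Benjamini-Hochberg adjustment over the 11284 genes that averaged 1 TPM or more), where 8.61% of all genes tested were lower. This count was 12 without Gclc WT 2, 18 without Gclc WT 4 and 21 without Gclc KO 3. None was higher, where 12.8% of all genes tested were higher, and 2 members were higher at an unadjusted p under 0.05. The median log2 fold change was −0.44 over the members and 0.09 over all genes tested, and 74 of 77 values were negative. In 45 members every Gclc KO mouse lay below every Gclc WT mouse (10.2% of all genes tested), and in no member did every Gclc KO mouse lie above (14.5% of all genes tested). The 42 members called lower had log2 fold changes between −1.73 and −0.36, which is 1.29-fold to 3.32-fold on the log2(TPM + 1) scale, and 15 of them reached 1.5-fold. Adjusted p-values ran between 0.00113 and 0.0444. Because bulk tissue was sequenced, fewer cells of a type and less RNA per cell cannot be told apart.

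**Figure D1:**
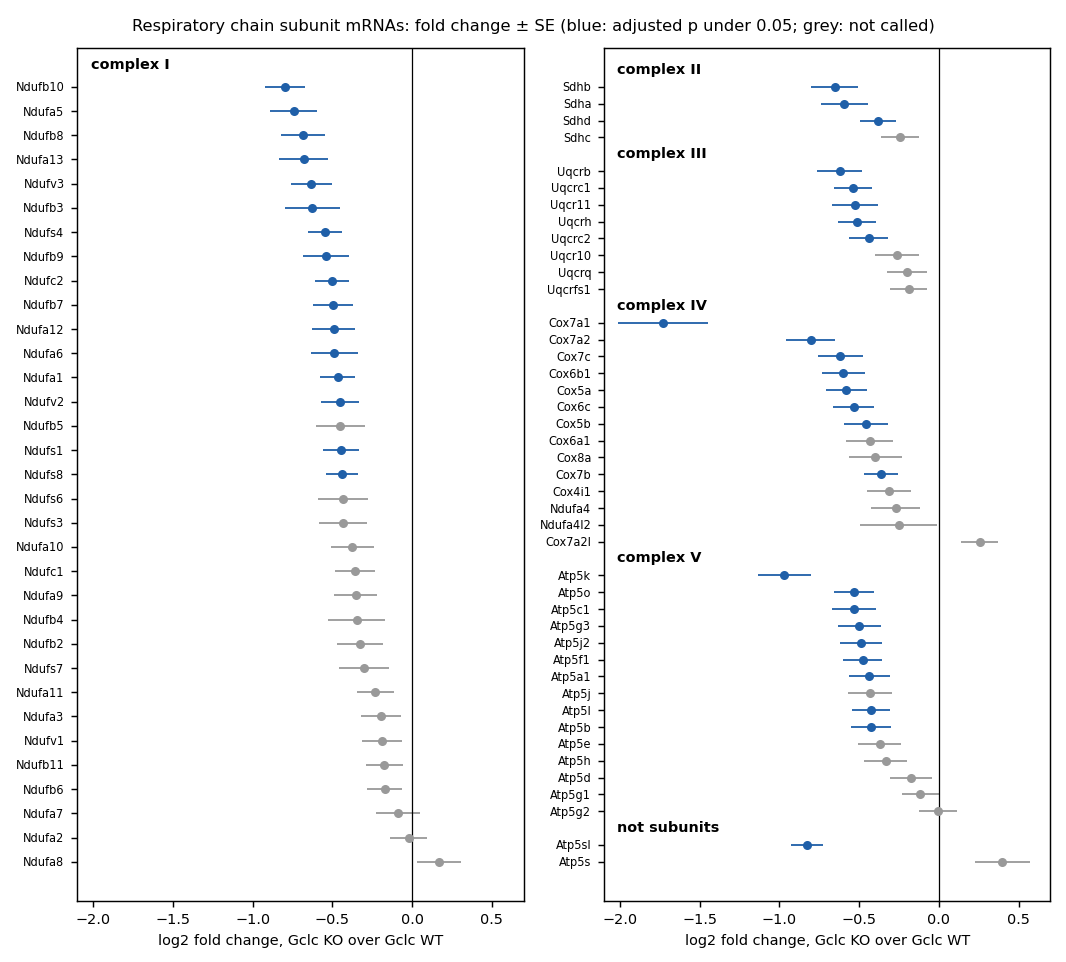
Log2 fold change (Gclc KO over Gclc WT, log2(TPM + 1) scale) with its standard error for 76 of the 77 members, grouped by complex, with complex I on the left and the others on the right. Blue points mark the 42 members called lower, and 3 grey points, Ndufa8, Cox7a2l and Atp5s, lie to the right of 0.

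Members were lower in each of the complexes. In complex I 16 of 34 members were lower (median log2 fold change −0.44), in complex II 3 of 4 (−0.49), in complex III 5 of 8 (−0.48), in complex IV 8 of 14 (−0.44) and in complex V 9 of 15 (−0.43). Summed over the members of a complex, TPM was 24.3% lower in Gclc KO than in Gclc WT mice for complex I, 27.5% for complex II, 24.8% for complex III, 25.9% for complex IV and 25.8% for complex V. These sums did not overlap between the genotypes for any of the 5 complexes. Whether the complexes differ from each other was not tested. The counts of calls depended on single mice. Without Gclc WT 2 the number lower was 7 in complex I, 0 in complexes II and III, 3 in complex IV and 1 in complex V. Without Gclc WT 4 it was 7, 1, 3, 5 and 1 in complexes I to V, and without Gclc KO 3 it was 9, 1, 3, 5 and 2. Without Gclc KO 1 it was 4 in complex V, and without Gclc KO 2 it was 3 in complex III. The median of each complex was negative in each of these fits.

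The same mice were low or high for many members. Summed over all 77 members, TPM was 16156, 14070.5, 14321 and 16642 in the Gclc KO mice, against 19170.3, 21605, 18048 and 23179 in the Gclc WT mice, with means of 15297 ± 1292 TPM in Gclc KO mice and 20500.5 ± 2322 TPM in Gclc WT mice (SD, n = 4 each). The highest Gclc KO mouse thus lay below the lowest Gclc WT mouse. Among Gclc KO mice, the lowest value fell in Gclc KO 2 for 38 members and in Gclc KO 3 for 34. Among Gclc WT mice, the lowest value fell in Gclc WT 3 for 53 members and in Gclc WT 1 for 23, and the highest in Gclc WT 4 for 65. The median SD over the members on the log2 scale was 0.16 among Gclc KO mice and 0.18 among Gclc WT mice, and 0.0962 among the 4 libraries of a mouse.

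**Figure D2:**
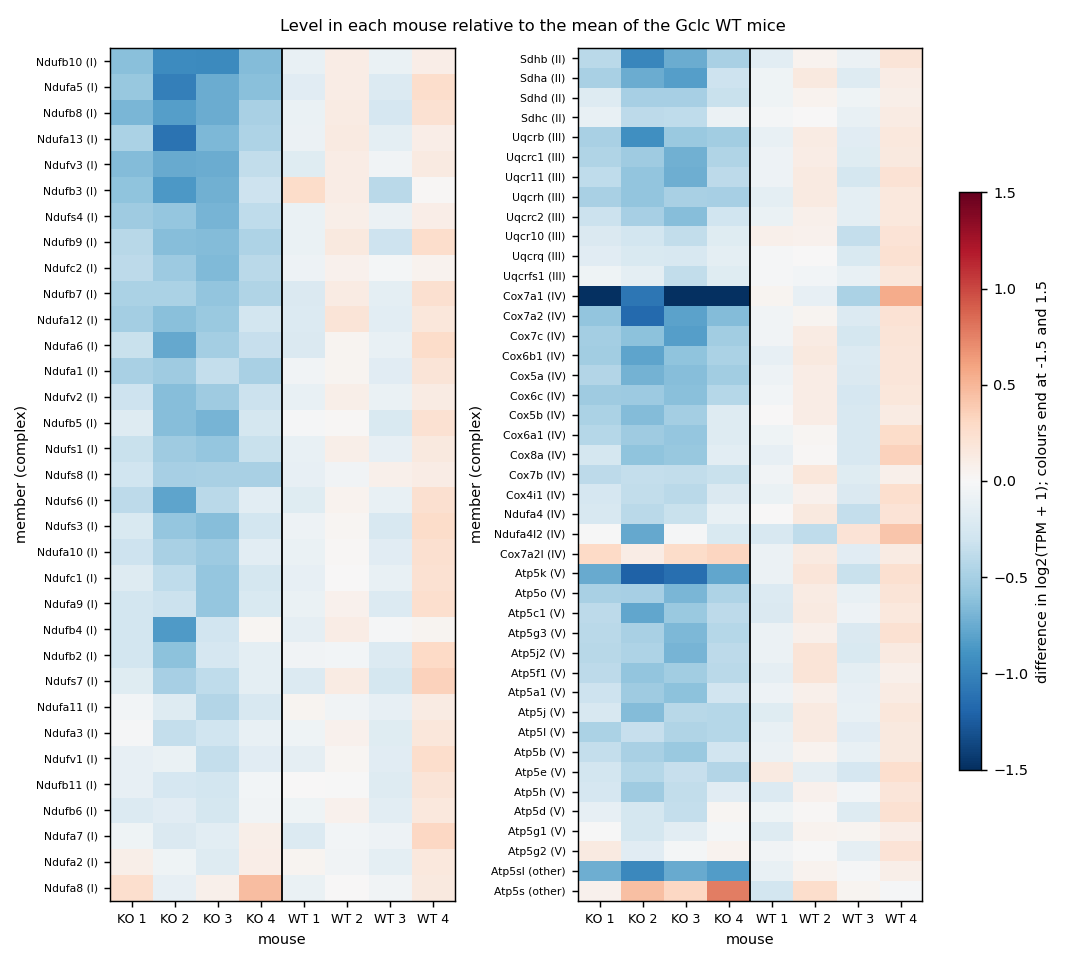
Level of 76 members in each mouse as the difference in log2(TPM + 1) from the mean of the Gclc WT mice, with the 4 Gclc KO mice left of the black line and the 4 Gclc WT mice right of it. Blue is lower: columns KO 2 and KO 3 are the darkest for most members, and within the Gclc WT mice the column WT 4 is the reddest in 64 of 76 rows.

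Some other features of the livers also differed between mice. Xist, a transcript of the inactive X chromosome, was at 22.8 to 30.2 TPM in Gclc KO 2, Gclc KO 3 and Gclc WT 3 and at most 0.0225 TPM in the other 5 mice, and with Xist as a term in the fit 41 members were lower (median −0.38). Of 10 Kupffer cell markers, 5 were higher in Gclc KO mice and none was lower, with none of them at 0 in every mouse and sums of 838 to 1403 TPM in Gclc KO mice, against 298 to 799 TPM in Gclc WT mice. Of 5 erythroid markers tested, 2 were lower, with sums over 6 markers of 307 to 1262 TPM in Gclc KO mice and 923 to 3740.1 TPM in Gclc WT mice. Their part in the result was not tested. Of 7 hepatocyte markers, 1 was lower (Cps1), and 5 had negative and 2 positive log2 fold changes (median −0.17). Their sums were 70279 to 148015 TPM in Gclc KO mice and 74971 to 104918 TPM in Gclc WT mice. Most of each sum was Alb, at 53186 to 111673 TPM in Gclc KO mice and 46258 to 66972.5 TPM in Gclc WT mice, so the sums mainly give the level of Alb. Of the markers of the liver's other cells, 1 of 6 endothelial markers was lower and 1 higher, 2 of 6 stellate cell markers were lower, 1 of 4 cholangiocyte markers was higher, and 0 of 5 neutrophil and monocyte markers were called by limma, also at an unadjusted p under 0.05. These marker counts stand beside 8.61% of all genes tested lower and 12.8% higher. Gclc WT 1 and Gclc WT 3 stood apart: exocrine pancreas markers (1 of 10 lower) summed to 351 TPM in Gclc WT 1 and to 6.86 to 37.3 TPM in the other 7 mice, and neutrophil and monocyte markers summed to 462 TPM in Gclc WT 3 and to 78.1 to 256 TPM in the others. Without both of these mice 45 members were lower, with a median log2 fold change of −0.57. Markers of brown fat and striated muscle, tissues rich in respiratory chains, summed to at most 0.2 TPM in Gclc KO mice and 14.4 TPM in Gclc WT mice, with this highest value in Gclc WT 2, and none passed the filter.

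The promoters of the members were searched for motifs of transcription factors known for respiratory chain genes, since many members were lower together. RefSeq promoters (GRCm38.p6, 250 bases before to 50 after the start) were found for 65 of 77 members. The motif of nuclear respiratory factor 1, GCGCNTGCG on either strand, stood in 23 of these 65 promoters (35.4%) and in 7.12% of the promoters of all 27025 genes in the table. It was found in 14 of 36 members called lower and in 9 of 29 others. The YY1 motif AAGATGGCG stood in 8 members (12.3%, against 1.64% of all promoters), the ETS motif CCGGAAGT, bound by GABP, in 5 (7.69%, against 4.31%), and the estrogen-related receptor motif TCAAGGTCA in 2, Atp5g3 and Sdhd (3.08%, against 0.466%). The antioxidant response element TGACNNNGC, the site of NRF2, stood in 8 members (12.3%, against 14.0% of all promoters). Each was searched on both strands, and a match is a description of the letters only. The promoter of Atp5g3 held the motif of nuclear respiratory factor 1 as well as the receptor motif. The promoter of Atp5g2 held the former and not the latter. Stretches around the match are shown, 5′ to 3′ on the gene's strand with each match of the motif on either strand in capitals, for 3 members that were lower (Atp5sl, chr7:25619288-25619356, plus strand; Ndufb10, chr17:24724424-24724479, minus strand; Atp5k, chr5:108434411-108434479, minus strand), for 2 that held the same motif and were not called (Atp5g2, chr15:102671051-102671119, minus strand; Ndufa8, chr2:36049339-36049398, minus strand), and for the receptor motif of Atp5g3 (chr2:73911340-73911408, minus strand) in its reverse orientation, because Atp5g3 and Atp5g2 are compared with each other under complex V.
Atp5sl: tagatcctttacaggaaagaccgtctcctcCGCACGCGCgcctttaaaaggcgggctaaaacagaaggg
Ndufb10: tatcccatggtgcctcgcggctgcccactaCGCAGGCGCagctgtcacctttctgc
Atp5k: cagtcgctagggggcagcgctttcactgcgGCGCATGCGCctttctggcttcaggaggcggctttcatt
Atp5g2: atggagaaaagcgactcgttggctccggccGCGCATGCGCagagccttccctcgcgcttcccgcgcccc
Ndufa8: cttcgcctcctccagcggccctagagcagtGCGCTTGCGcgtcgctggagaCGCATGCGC
Atp5g3: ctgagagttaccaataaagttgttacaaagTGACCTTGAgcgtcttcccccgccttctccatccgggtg

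Members of complex I were lower in both its core and its accessory parts. The core subunits, which hold the flavin and the iron-sulfur clusters, were lower for 3 of 7 members, Ndufs1, Ndufs8 and Ndufv2. Ndufs8, which holds iron-sulfur clusters near the ubiquinone site, was measured at 94.5, 82.2, 82.6 and 82.7 TPM in the Gclc KO mice, against 107, 112, 122 and 125 TPM in the Gclc WT mice (log2 fold change −0.44, adjusted p = 0.0172). The groups did not overlap. The call was lost without Gclc WT 4 (adjusted p between 0.00506 and 0.054 over the alternatives with 1 value per mouse). Ndufv1, which binds NADH, had means of 122 ± 9.66 TPM in Gclc KO mice and 139.8 ± 19.9 TPM in Gclc WT mice and was not called (adjusted p = 0.316).

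Among the 27 accessory subunits of complex I, 13 were lower, with 5 of 12 Ndufa and 5 of 10 Ndufb genes. Ndufb10, a subunit of the membrane arm, had the smallest adjusted p in complex I. It was measured at 177, 142, 140.4 and 174 TPM in the Gclc KO mice, against 252, 296, 256 and 292 TPM in the Gclc WT mice, or 1.74-fold lower (log2 fold change −0.80, adjusted p = 0.00346). The highest Gclc KO value was well below the lowest Gclc WT value. Ndufa5, a subunit of the matrix arm, was at 86.0, 62.2, 76.1 and 82.3 TPM in the Gclc KO mice, against 114, 139, 110.6 and 153 TPM in the Gclc WT mice (log2 fold change −0.74). Ndufb8, whose protein is widely used as a marker of assembled complex I, was at 162, 147, 156 and 187 TPM in the Gclc KO mice, against 244, 284, 219.9 and 306 TPM in the Gclc WT mice (log2 fold change −0.68). Neither gene's groups overlapped.

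Other accessory subunits were lower by a smaller margin. Ndufs4, which supports the stability of the matrix arm and whose loss in mice causes a Leigh syndrome-like disease, had means of 44.0 ± 4.12 TPM in Gclc KO mice and 64.6 ± 4.86 TPM in Gclc WT mice (log2 fold change −0.55, adjusted p = 0.00814). Ndufv3 had 129 ± 17.0 TPM in Gclc KO mice and 199 ± 20.5 TPM in Gclc WT mice, and Ndufc2 had 108 ± 9.79 TPM in Gclc KO mice and 153 ± 7.10 TPM in Gclc WT mice. These 6 accessory genes (Ndufb10, Ndufa5, Ndufb8, Ndufs4, Ndufv3 and Ndufc2) were called lower whichever mouse was left out. Ndufa13, also known as Grim19, was at 102, 65.5, 88.2 and 103 TPM in the Gclc KO mice, against 133, 155, 128 and 152 TPM in the Gclc WT mice. Its groups did not overlap, and its call was lost without Gclc WT 2 (adjusted p between 0.00582 and 0.0535 over the alternatives with 1 value per mouse). Ndufb3 was called lower (log2 fold change −0.62, adjusted p = 0.0309) although Gclc KO 4, at 129 TPM, lay above Gclc WT 3, at 121 TPM, and this call was lost without Gclc KO 1, Gclc KO 2, Gclc KO 3, Gclc WT 1, Gclc WT 2 or Gclc WT 4 (adjusted p between 0.00807 and 0.0869 over the alternatives with 1 value per mouse). At the other end, Ndufa2 had 100.02 ± 9.58 TPM in Gclc KO mice and 101 ± 9.42 TPM in Gclc WT mice (95% interval of the log2 fold change −0.28 to 0.24), and Ndufa8 was the only complex I member with a positive value (0.17, adjusted p = 0.417).

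Complex II, the succinate dehydrogenase of the citric acid cycle, was lower in both catalytic subunits. Sdhb, the iron-sulfur subunit, was measured at 190.4, 128, 151 and 180.2 TPM in the Gclc KO mice, against 227, 263, 237 and 289.6 TPM in the Gclc WT mice (log2 fold change −0.65, adjusted p = 0.0156). Sdha, the flavoprotein, was at 191, 160.0, 152 and 217 TPM in the Gclc KO mice, against 256, 299, 234 and 291 TPM in the Gclc WT mice (log2 fold change −0.59, adjusted p = 0.021). Neither overlapped between the genotypes. Of the membrane anchors, Sdhd was lower (log2 fold change −0.38, adjusted p = 0.0386) and Sdhc was not called (−0.24, adjusted p = 0.17). These calls rested on single mice. That of Sdhb was lost without Gclc WT 2 (adjusted p between 0.00531 and 0.0513 over the alternatives with 1 value per mouse), that of Sdha without Gclc WT 2, Gclc WT 4 or Gclc KO 3 (adjusted p between 0.00728 and 0.0682 over the alternatives with 1 value per mouse), and that of Sdhd without Gclc KO 2, Gclc KO 3, Gclc KO 4, Gclc WT 1, Gclc WT 2 or Gclc WT 4 (adjusted p between 0.0121 and 0.106 over the alternatives with 1 value per mouse).

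In complex III, 5 of 8 members were lower: Uqcrc1, Uqcrc2, Uqcrb, Uqcrh and Uqcr11. Uqcrc1, a core subunit, was measured at 138, 129.9, 114 and 138 TPM in the Gclc KO mice, against 178, 204, 165 and 209 TPM in the Gclc WT mice (log2 fold change −0.54, adjusted p = 0.0141). Uqcrb, a small subunit next to cytochrome b, was at 295, 216, 280.2 and 285 TPM in the Gclc KO mice, against 381, 447, 365 and 460.4 TPM in the Gclc WT mice (log2 fold change −0.62), and Uqcrh, the hinge protein, was at 309, 286, 307 and 307 TPM in the Gclc KO mice, against 391.8, 475, 389 and 481 TPM in the Gclc WT mice (log2 fold change −0.51). None of these 3 overlapped, and each lost its call without Gclc WT 2, with adjusted p-values over the alternatives of up to 0.0518 for Uqcrc1, 0.0535 for Uqcrb and 0.0590 for Uqcrh. The most abundant member, Uqcrq, had means of 439.5 ± 14.8 TPM in Gclc KO mice and 507 ± 65.8 TPM in Gclc WT mice and was not called (adjusted p = 0.287). The Rieske iron-sulfur protein, Uqcrfs1, had 184 ± 16.2 TPM in Gclc KO mice and 209 ± 18.05 TPM in Gclc WT mice (adjusted p = 0.265). Cyc1, the cytochrome c1 of complex III, does not match the name rule and was examined with the related genes.

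Complex IV held the member with the largest fall on the log2(TPM + 1) scale, Cox7a1, and a member with a positive value, Cox7a2l. Cox7a1, the isoform of heart and muscle, was measured at 0, 1.18, 0.263 and 0.367 TPM in the Gclc KO mice, against 3.75, 3.23, 2.33 and 5.83 TPM in the Gclc WT mice. Every Gclc KO mouse lay below every Gclc WT mouse (log2 fold change −1.73, adjusted p = 0.00409), at levels of a few TPM at most. Its fold change depended on the pseudocount: the log2 fold change was −3.26 with a pseudocount of 0.1 and −0.68 with a pseudocount of 5, where Atp5k, at −0.95, had a larger fall. Cox7a2, the isoform of liver, was at 113, 75.4, 97.4 and 109 TPM in the Gclc KO mice, against 165, 176, 148 and 199 TPM in the Gclc WT mice, or 1.75-fold lower (adjusted p = 0.0072). Cox7a2l is a relative of these with a reported role in joining complex III to complex IV in supercomplexes, which was not examined here. It was at 186, 164, 184 and 189.7 TPM in the Gclc KO mice, against 142, 166, 135 and 164 TPM in the Gclc WT mice (log2 fold change 0.26, adjusted p = 0.137). Its groups overlapped, and it was the 1 member called higher when all 32 libraries entered the fit with the mouse as a random effect (adjusted p = 0.00913 in that fit and an adjusted p between 0.0806 and 0.506 over the alternatives with 1 value per mouse).

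Ratios within isoform families were compared between the genotypes. The ratios printed are of TPM, whereas the tests were run on log2 ratios with 1 TPM added to each side. The ratio of Cox7a2l to Cox7a2 TPM was 1.64, 2.17, 1.89 and 1.75 in the Gclc KO mice, against 0.857, 0.947, 0.910 and 0.824 in the Gclc WT mice. These groups did not overlap, and a two-sided exact permutation test over the 70 splits of the 8 mice gave p = 0.0286, the smallest that it can give (adjusted p = 0.0714 over the 5 ratios computed), so the difference did not pass after adjustment. The ratio of Cox7a1 to Cox7a2 was at most 0.01565 in Gclc KO mice and between 0.01576 and 0.0293 in Gclc WT mice. These ratios did not overlap. With 1 TPM added to each side the permutation test did not separate the genotypes (exact p = 0.0857, adjusted p = 0.143). Cox7a1 is so low that the added 1 TPM weighs on this outcome. Ndufa4 and its paralog Ndufa4l2, which is known to be induced by hypoxia, were not called: Ndufa4 had means of 556 ± 51.1 TPM in Gclc KO mice and 677 ± 112 TPM in Gclc WT mice, and Ndufa4l2 had 1.05 ± 0.459 TPM in Gclc KO mice and 1.45 ± 0.627 TPM in Gclc WT mice (exact p = 0.971 and adjusted p = 0.971 for their ratio).

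The other complex IV members called lower were Cox5a, Cox5b, Cox6b1, Cox6c, Cox7b and Cox7c. Cox5a, a matrix-facing subunit, was measured at 225, 186, 195 and 212 TPM in the Gclc KO mice, against 289, 329, 262 and 346 TPM in the Gclc WT mice (log2 fold change −0.58, adjusted p = 0.0131), and kept its call whichever mouse was left out. Cox6b1 and Cox7c, small subunits of the complex, had log2 fold changes of −0.60 and −0.62, and both lost their calls without Gclc WT 2 (highest adjusted p over the alternatives 0.0553 and 0.0535). Cox4i1, the most abundant member of complex IV and the ubiquitous partner of the oxygen-sensitive Cox4i2, was at 624, 576, 563 and 639.9 TPM in the Gclc KO mice, against 697, 779, 641 and 885 TPM in the Gclc WT mice. The highest Gclc KO mouse nearly reached the lowest Gclc WT mouse, and Cox4i1 was not called (log2 fold change −0.31, adjusted p = 0.128). Cox6a1 and Cox8a, the liver-type isoforms of their families, had log2 fold changes of −0.43 and −0.40 and were not called (adjusted p = 0.0634 and adjusted p = 0.112).

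**Figure D3:**
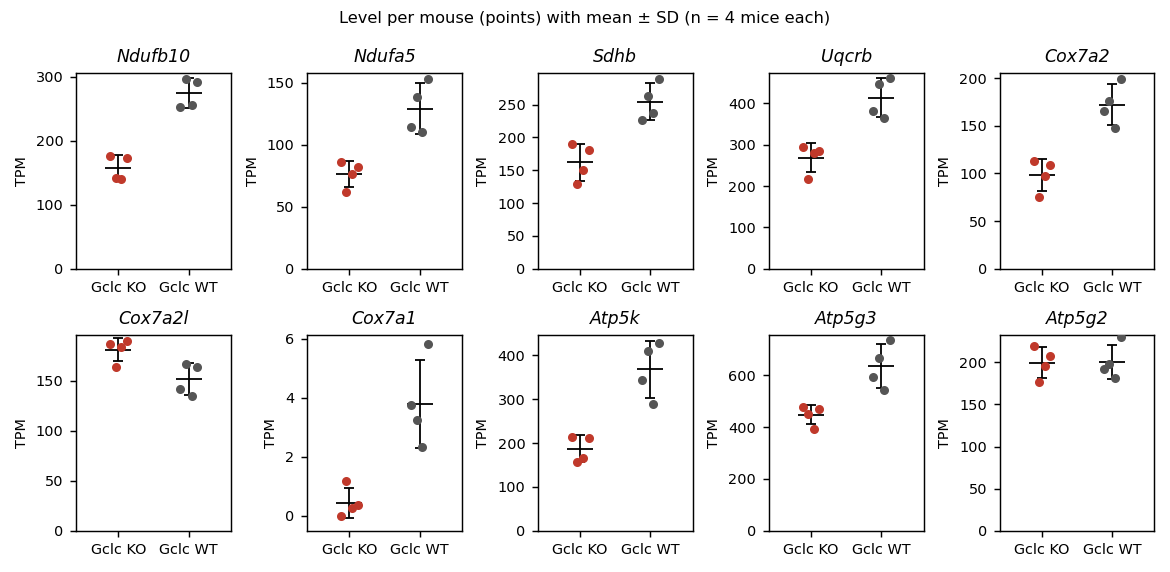
TPM in each mouse for 10 members, with Gclc KO mice (red) left of Gclc WT mice (grey) and bars for the mean ± SD (n = 4 mice each), each axis on a linear scale. The groups do not overlap for Ndufb10, Ndufa5, Sdhb, Uqcrb, Cox7a2, Cox7a1, Atp5k and Atp5g3, whereas Cox7a2l and Atp5g2 overlap.

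In complex V, 3 of 5 members of the catalytic F1 part, 1 of 3 c-ring genes and 5 of 7 members of the stalk and membrane part were lower. Atp5b, the catalytic beta subunit and the most abundant of the 77 members, was measured at 755, 689.8, 657 and 791 TPM in the Gclc KO mice, against 909, 1004, 896 and 1075 TPM in the Gclc WT mice. The groups did not overlap, and the difference was close to the threshold (log2 fold change −0.42, adjusted p = 0.0415), with the call lost when any 1 mouse other than Gclc WT 3 was left out (adjusted p between 0.0145 and 0.114 over the alternatives with 1 value per mouse). Atp5a1, the alpha subunit, had means of 447 ± 50.2 TPM in Gclc KO mice and 604 ± 47.8 TPM in Gclc WT mice (log2 fold change −0.44, adjusted p = 0.0381), and its call was lost without Gclc KO 1, Gclc KO 2, Gclc KO 3, Gclc WT 1, Gclc WT 2 or Gclc WT 4 (adjusted p between 0.0125 and 0.108 over the alternatives with 1 value per mouse). Atp5k, the e subunit of the membrane part that helps ATP synthase to form dimers, was at 214, 156, 166 and 212 TPM in the Gclc KO mice, against 343, 411, 289 and 429 TPM in the Gclc WT mice. This was 1.96-fold lower (log2 fold change −0.97, adjusted p = 0.00504), the second largest fall among the members on the log2(TPM + 1) scale, and it held whichever mouse was left out. Atp5o, the oligomycin sensitivity-conferring protein of the stalk, was at 202, 200.1, 176 and 204 TPM in the Gclc KO mice, against 245, 308, 262 and 324 TPM in the Gclc WT mice (log2 fold change −0.53, adjusted p = 0.0173). It lost its call without Gclc WT 2 or Gclc WT 4 (adjusted p between 0.00661 and 0.0607 over the alternatives with 1 value per mouse).

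Of the genes of the c ring, the rotor that protons turn, Atp5g3 was called lower and the other two were not called. Atp5g1, Atp5g2 and Atp5g3 encode the same mature protein with different import sequences. Atp5g3 was measured at 475, 451, 393 and 469 TPM in the Gclc KO mice, against 592, 665, 544 and 737 TPM in the Gclc WT mice (log2 fold change −0.50, adjusted p = 0.0294), without overlap, and its call was lost without Gclc KO 1, Gclc KO 3, Gclc KO 4, Gclc WT 2 or Gclc WT 4 (adjusted p between 0.0151 and 0.0872 over the alternatives with 1 value per mouse). Atp5g2 was at 220.0, 177, 195 and 207 TPM in the Gclc KO mice, against 192, 199, 182 and 229.6 TPM in the Gclc WT mice, so its groups overlapped throughout (95% interval of the log2 fold change −0.27 to 0.26). Atp5g1 had means of 192 ± 16.2 TPM in Gclc KO mice and 209 ± 18.8 TPM in Gclc WT mice (95% interval −0.38 to 0.14). Atp5g3 made up 52.7, 56.4, 50.8 and 53.3% of the summed TPM of the 3 genes in the Gclc KO mice, against 61.3, 61.6, 57.9 and 61.9% in the Gclc WT mice. The ratio of Atp5g3 to the sum of the other two was 1.14 ± 0.109 in Gclc KO mice and 1.55 ± 0.117 in Gclc WT mice (SD, n = 4 each, exact permutation p = 0.0286, adjusted p = 0.0714 over the 5 ratios), and the groups did not overlap. The ratio of Atp5g1 to Atp5g2 did not separate the genotypes (exact p = 0.314, adjusted p = 0.393).

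The 2 members that share only the name had fold changes of opposite sign. Atp5sl, now called Dmac2, encodes a factor for the assembly of the membrane arm of complex I. It was measured at 16.3, 13.7, 15.98 and 15.1 TPM in the Gclc KO mice, against 25.5, 28.8, 27.3 and 29.5 TPM in the Gclc WT mice, and had the smallest adjusted p of all 77 members (log2 fold change −0.82, adjusted p = 0.00113). Atp5s, or Dmac2l, was at 5.42, 7.42, 6.62 and 9.44 TPM in the Gclc KO mice, against 4.07, 6.38, 5.30 and 5.05 TPM in the Gclc WT mice. Its groups overlapped and it was not called (log2 fold change 0.40, adjusted p = 0.127).

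The 35 members not called had log2 fold changes between −0.45 and 0.40, and 32 of these were negative. In 5 of them every Gclc KO mouse lay below every Gclc WT mouse, and adjusted p-values started at 0.0509, for Atp5j. A value that missed the threshold therefore does not show that a member was unchanged. Of the 42 members called lower, 40 had no overlap between the groups, the exceptions being Ndufb3 and Cox5b.

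Subunits that the symbols miss and Atpif1, an inhibitor of ATP synthase, were examined next, with the genes that act around the chain. Cyc1 was measured at 132, 119.5, 115 and 126 TPM in the Gclc KO mice, against 198, 218, 183 and 226 TPM in the Gclc WT mice, a 1.67-fold fall (log2 fold change −0.74, adjusted p = 0.00268). Usmg5, a small ATP synthase subunit that also supports dimers, was lower too (log2 fold change −0.52, adjusted p = 0.0118), and the other 3 of these 5 genes (Ndufab1, Atpif1 and 2010107E04Rik) were not called. Among 10 electron carriers and other ubiquinone reductases, 4 were lower and none was higher by limma, also at an unadjusted p under 0.05 (median log2 fold change −0.38). Of all genes tested, 8.61% were lower and 12.8% higher. Etfa and Etfb, the subunits of the flavoprotein that accepts electrons from fatty acid oxidation, and Etfdh, which passes them to ubiquinone, had log2 fold changes of −0.75, −0.50 and −0.57. The fourth was Prodh2, a hydroxyproline dehydrogenase (−0.83). Etfb lost its call without Gclc KO 3, Gclc WT 2 or Gclc WT 4 (adjusted p between 0.00645 and 0.075 over the alternatives with 1 value per mouse) and Prodh2 without Gclc KO 2, Gclc KO 3, Gclc WT 2 or Gclc WT 4 (adjusted p between 0.00865 and 0.0685 over the alternatives with 1 value per mouse). Etfa was at 192, 184, 162 and 199 TPM in the Gclc KO mice, against 293, 333, 268 and 352 TPM in the Gclc WT mice, without overlap. Cycs, cytochrome c, had a log2 fold change of −0.39 and an adjusted p of 0.0513.

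**Figure D4:**
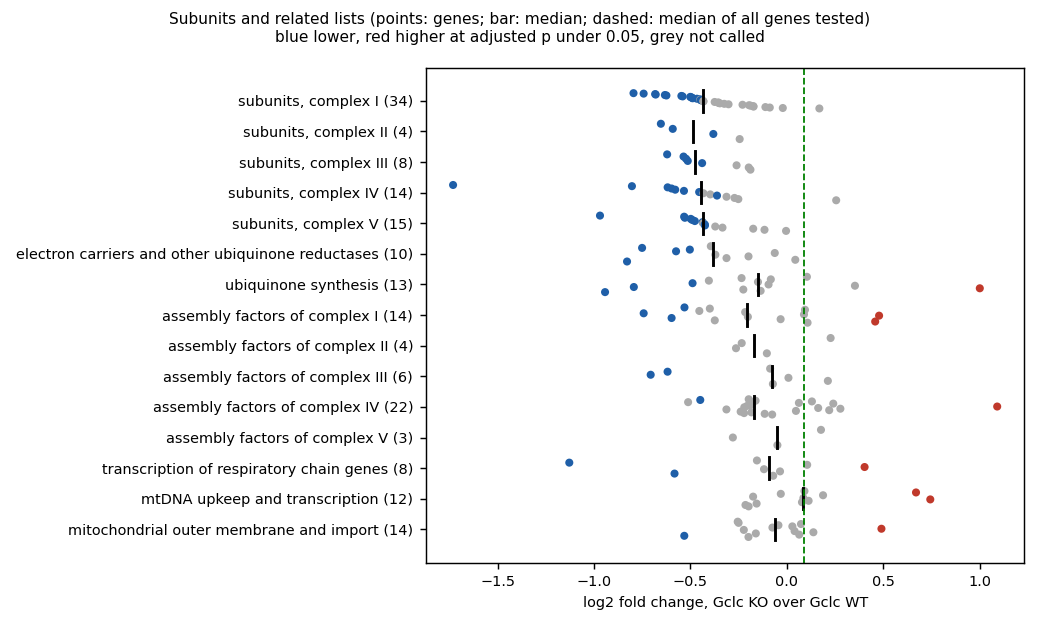
Log2 fold change (Gclc KO over Gclc WT) of each gene in the subunit groups and in the related lists, with the number tested in parentheses, a black bar at each median and a dashed line at the median of all genes tested, 0.09. The medians of the 5 subunit groups, −0.49 to −0.43, are the 5 furthest to the left.

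Ubiquinone synthesis and the assembly factors were mixed. The counts below stand beside 8.61% of all genes tested lower and 12.8% higher. Of the complex IV assembly factors 4.55% were called in each direction. Of 13 genes for ubiquinone synthesis and use, 3 were lower and 1 was higher (median log2 fold change −0.15). Coq10b, which binds ubiquinone, had means of 57.3 ± 9.12 TPM in Gclc KO mice and 112 ± 20.8 TPM in Gclc WT mice (−0.94, adjusted p = 0.0047), and Coq5, a methyltransferase of the pathway, had 15.3 ± 1.51 TPM in Gclc KO mice and 21.8 ± 0.736 TPM in Gclc WT mice (−0.49). The third was Adck3, now called Coq8a (−0.79). Its paralog Adck4, now called Coq8b, was at 12.02, 21.7, 26.8 and 24.1 TPM in the Gclc KO mice, against 9.24, 8.93, 11.97 and 8.76 TPM in the Gclc WT mice (log2 fold change 1.00, adjusted p = 0.0142). Of 14 assembly factors of complex I, 3 were lower (Ndufaf1, Ecsit and Ndufaf6, with log2 fold changes of −0.53, −0.60 and −0.74) and 2 were higher (Nubpl, which delivers iron-sulfur clusters, 0.48, and Foxred1, 0.46). Ecsit lost its call without Gclc WT 2 (adjusted p between 0.00724 and 0.0532 over the alternatives with 1 value per mouse) and Ndufaf6 without Gclc WT 2 or Gclc WT 4 (adjusted p between 0.0123 and 0.0799 over the alternatives with 1 value per mouse). Of 6 assembly factors of complex III, 2 were lower, Uqcc2 (−0.71, adjusted p = 0.00346) and Uqcc1 (−0.62, adjusted p = 0.00738), which act together in the synthesis of cytochrome b, and both kept their calls whichever mouse was left out. Of 22 assembly factors of complex IV, 1 was lower (Cox11, −0.45, or −0.30 with a pseudocount of 5) and 1 was higher (Sco2, 1.09), both of them copper-handling proteins, and the call of Cox11 was lost without Gclc KO 2, Gclc KO 3, Gclc WT 2 or Gclc WT 4 (adjusted p between 0.00639 and 0.105 over the alternatives with 1 value per mouse) and that of Sco2 without Gclc KO 1, Gclc KO 3, Gclc KO 4, Gclc WT 1, Gclc WT 2 or Gclc WT 3 (adjusted p between 0.00317 and 0.173 over the alternatives with 1 value per mouse). Of 4 assembly factors of complex II and 3 of complex V, 0 were called by limma, and 1 of complex V was lower at an unadjusted p under 0.05.

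Genes that control the transcription of the chain were examined as well. Of 8 tested, 2 were lower and 1 was higher, where 8.61% of all genes tested were lower and 12.8% higher. Ppargc1b, the coactivator PGC-1 beta, was at 0.765, 1.33, 0.380 and 0.665 TPM in the Gclc KO mice, against 2.25, 2.48, 2.99 and 3.79 TPM in the Gclc WT mice (log2 fold change −1.13, adjusted p = 0.00552). Esrra, the estrogen-related receptor alpha, was at 11.4, 11.3, 9.65 and 12.3 TPM in the Gclc KO mice, against 14.0, 18.4, 16.9 and 19.9 TPM in the Gclc WT mice (log2 fold change −0.58, adjusted p = 0.0134). Neither overlapped between the genotypes. The log2 fold change of Ppargc1b was −1.83 with a pseudocount of 0.1 and −0.44 with a pseudocount of 5. Nrf1, the factor whose motif stood in 23 of 65 member promoters, was slightly higher, at 5.07 ± 0.541 TPM in Gclc KO mice and 3.58 ± 0.380 TPM in Gclc WT mice (log2 fold change 0.40, or 0.23 with a pseudocount of 5, adjusted p = 0.0415), and it lost this call without Gclc KO 1, Gclc KO 3, Gclc KO 4, Gclc WT 1, Gclc WT 2 or Gclc WT 4 (adjusted p between 0.0243 and 0.388 over the alternatives with 1 value per mouse). Ppargc1a, the better-known relative of Ppargc1b, had 3.19 ± 0.824 TPM in Gclc KO mice and 3.87 ± 2.00 TPM in Gclc WT mice and was not called (adjusted p = 0.705).

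Lists of mitochondrial genes for DNA upkeep and for protein import were examined last. Their shares of calls lay near those of all genes tested, 8.61% lower and 12.8% higher. In the upkeep list 16.7% were higher, and in the import list 7.14% were called in each direction. Of 12 genes for the upkeep and transcription of mitochondrial DNA, none was lower by limma, also at an unadjusted p under 0.05, and 2 were higher. These were Peo1, the helicase Twinkle, at 25.2, 25.5, 21.5 and 27.7 TPM in the Gclc KO mice, against 13.9, 11.4, 19.4 and 14.1 TPM in the Gclc WT mice (log2 fold change 0.74), and Tfb1m, an rRNA methyltransferase (0.67). The median of this list was 0.08, beside 0.09 for all genes. Of 14 genes of the outer membrane and of protein import, 1 was lower (Timm44, −0.53, its call lost without Gclc KO 1, Gclc KO 3, Gclc WT 2 or Gclc WT 4, adjusted p between 0.0074 and 0.0849 over the alternatives with 1 value per mouse) and 1 was higher (Tomm20, 0.49), with a median of −0.06. Rescaling by the trimmed mean of M values moved the median of all genes by −0.09, so the sign of such small medians depends on the scaling. The summed level of the import list was 882 to 1115 TPM in Gclc KO mice and 961 to 1093 TPM in Gclc WT mice, so the groups overlapped.

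The direction of the median held under each way of processing that was tried, whereas the number of calls rested on single mice. The direction was the same in both batches of libraries for 76 of 77 members, and batch 1 alone gave 38 members lower and batch 2 alone gave 34. Rescaling by the trimmed mean of M values gave 53 members lower and by the median of ratios 51, and over all genes tested the split moved to 1474 lower and 1190 higher with the trimmed mean and 1412 lower and 1242 higher with the median of ratios, against 972 lower and 1439 higher without rescaling. With 1 mouse left out, the median log2 fold change of the members stayed between −0.48 and −0.38, and no member was higher. Negative values were seen in 71 to 74 of the 77 members under every alternative that kept all 77. Besides the fits without Gclc WT 2, Gclc WT 4 or Gclc KO 3 given above, the number lower was 30 to 48 when any 1 of the other mice was left out. With all 32 libraries in the fit and 1 correlation between libraries of a mouse for all genes, 59 members were lower, and adjusted p-values were far smaller (5.27e-08 for Atp5b). That fit rests on the same 8 mice. The 11 members called lower whichever mouse was left out were Ndufb10, Ndufa5, Ndufb8, Ndufs4, Ndufv3, Ndufc2, Cox5a, Cox7a1, Cox7a2, Atp5k and Atp5sl.

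**Figure D5:**
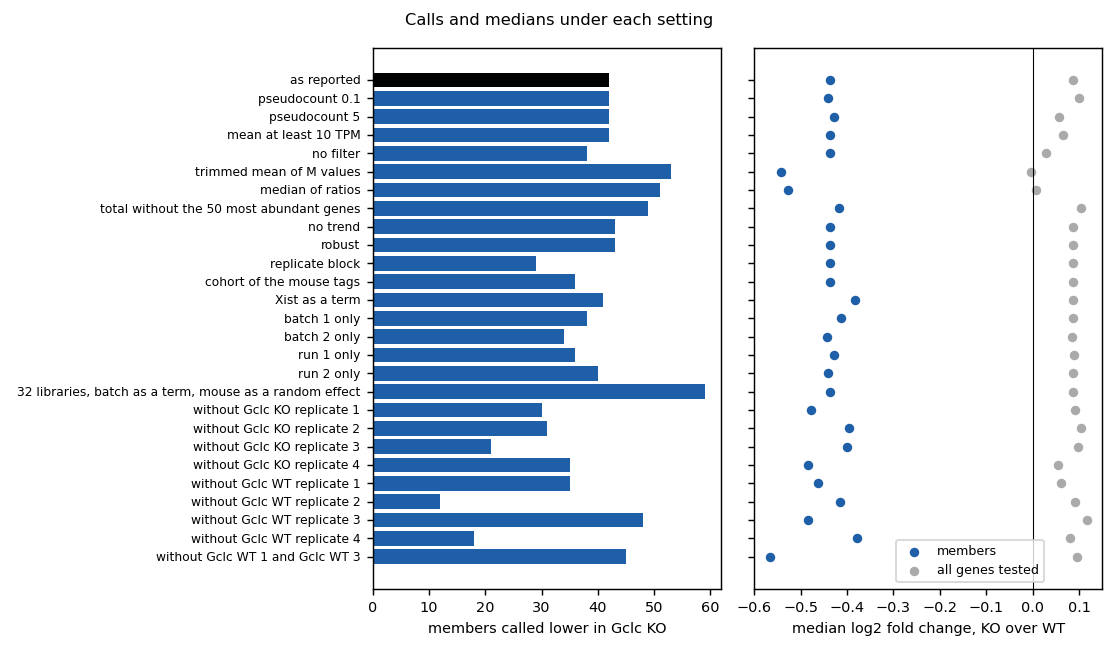
Number of members called lower in Gclc KO mice (left, bars) and median log2 fold change of the members and of all genes tested (right, points) as reported and under each of the other settings. The members' median stays between −0.57 and −0.38 in every row while the number of calls runs between 12 and 59.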

How the data were processed

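Liver RNA of 4 Gclc KO and 4 Gclc WT mice was sequenced in 32 libraries, 4 per mouse in 2 batches and 2 runs. The labels do not say what the batch and run numbers stand for, and each mouse's libraries were averaged, as technical repeats. What the authors deposited was 1 table of TPM values per gene symbol. Per the labels bcl2fastq 2.2 was used. For the aligner, the quantifier and the genome build: not given in the sources used here. In all, the table held 20896 rows, of which 75 repeated a symbol already listed. Their values were the same, so 1 row was kept per symbol. TPM rescales every library to the same total, so a few abundant transcripts can move all other values, and depth is unknown. Genes above 0 numbered 13280 to 14016 per library in batch 1 and 12341 to 13193 in batch 2, and no pair of libraries was identical.

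The 11284 genes that averaged 1 TPM or more across the 8 mice were tested on log2(TPM + 1) with limma 3.58.1 in R 4.3.3 (mean-variance trend, two-sided, Benjamini-Hochberg adjusted p under 0.05). Fold changes on this scale understate those of low genes. The fit was tested on simulated data. Ratios between members were compared with exact permutation tests over the mice, with the Benjamini-Hochberg adjustment of scipy 1.17.1. Genotypes were taken from the labels. Nothing states that mice were littermates. The limma p-values set a difference in means against the spread between these mice, moderated over all genes tested.

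Named genes were Gclc, up to 24 called members by smallest adjusted p, in each complex the most abundant member and the one with the largest change, members of isoform families, and up to 3 called genes of each related list by smallest adjusted p. The other genes given with values (among them Ndufv1, Ndufa2, Ndufa8, Ndufb3, Sdhc, Sdhd, Uqcrfs1, Atp5a1, Atp5j, Atp5s, Etfdh, Cycs, Adck3, Nubpl, Foxred1 and Ppargc1a) were added after their values were seen. The values of 1 member are not reported here. The members and the gene lists were chosen with earlier results of these data known. The alternatives were pseudocounts of 0.1 and 5, a minimum of 10 TPM or none, 3 other scalings, changes to the fit, single batches and runs, all 32 libraries, and leaving out mice.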

Additional observations from a re-analysis of the deposited data

Results flagged for a closer look

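In 5 of 130 groups of 4 mice (3.85%, where chance gives about 5%), 1 mouse stood far from the other 3 on the log2(TPM + 1) scale. Gclc KO 2 was the lowest Gclc KO mouse for Uqcrb, at 7.76, with the other 3 between 8.14 and 8.21, and for Uqcrh, at 8.17, with the other 3 between 8.27 and 8.28. Ndufs8 was at 6.58 in Gclc KO 1, with the other Gclc KO mice between 6.38 and 6.39. Atp5o was at 7.47 in Gclc KO 3, with the other Gclc KO mice between 7.65 and 7.68. Adck4 was at 3.70 in Gclc WT 3, with the other Gclc WT mice between 3.29 and 3.36. The calls of Uqcrb, Uqcrh, Ndufs8, Atp5o and Adck4 were kept without the mouse that stood apart.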

How the results depend on the processing

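The members' median log2 fold change, and that of each complex, stayed negative and moved by less than the spread between mice under every alternative. Of 1503 pairs of a named gene and an alternative, 1379 kept direction and side of the threshold, 107 lost a call, 11 gained one and 6 changed sign. All 6 were values of Atp5g2, which was never called: 0.0152 with the total taken without the 50 most abundant genes, 0.044 with Xist as a term, 0.0094 with run 2 alone, and values above 0 without Gclc KO 3, Gclc KO 2 or Gclc WT 4, in a range of −0.0514 to 0.063 over all mice left out in turn. Members called lower numbered 12 to 48 with 1 mouse left out, 38 without the filter on low values and 45 without Gclc WT 1 and Gclc WT 3 together, an alternative chosen after seeing the data. With all 32 libraries and the mouse as a random effect 59 were lower and 1 was higher, Cox7a2l. The cause of these changes was not tested. Whether mouse numbers pair the mice cannot be settled from 4 mice per genotype. Same-numbered mice deviated together with correlations over genes of 0.062, −0.12, 0.34 and 0.26. Gclc KO 3 and Gclc WT 3 correlated best with each other, as did Gclc KO 4 and Gclc WT 4. The mice numbered 1 and 2 did not correlate best with their own number. The mouse tags in the file fall into a lower and a higher range of numbers, taken as a possible cohort, with 2 mice of each genotype in each. With this cohort as a term 36 members were lower, all among the 42. With the number as a replicate block 29 members were lower, all among the 42, and none was higher. Depth is unknown for TPM, so counting error could not be separated from the spread between mice.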
